A study of Mus musculus with 2 samples.

Results

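Of the 1577 genes that GENCODE release M1, the annotation of mm9, gives the type miRNA, 48 carried at least 10 reads on their own strand in the NPA RNA-seq of ESCs and NPCs together. These 48 genes were chosen by their read counts in these same libraries, so that the counts that put them in the list are given as a description. A further 194 miRNA genes had 1 to 9 reads and 1335 had none. The study sequenced nonpolyadenylated (NPA) RNA, the fraction left after poly(A) RNA was taken out with oligo(dT) beads, from R1 ESCs and from the NPCs derived from them. R1 is a mouse ESC line, grown here on mitomycin-treated embryonic fibroblasts with LIF and sampled at passage 18. The NPCs came from the same line, spent 4 days as embryoid bodies without LIF, were replated on poly-L-ornithine and fibronectin in medium with insulin, transferrin and selenium, and were gathered on day 7. There was 1 library per cell type, with 4271306 deposited reads in ESCs and 4399729 in NPCs, so no test between cell types was made and every ratio compares 2 libraries. Intervals on counts are exact Poisson intervals, those on ratios conditional binomial and those on shares Clopper-Pearson, all at 95%, and they cover counting error only.

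MicroRNAs are made from long primary transcripts that fold into hairpins. The nuclear enzyme Drosha, with its partner Dgcr8, cuts both strands at the base of the hairpin, and Dicer then removes the loop and leaves the 5p and 3p arms, from which the mature miRNA is taken. Many miRNA genes lie in introns of protein-coding genes or in noncoding host transcripts, and several lie close together in clusters that are transcribed as a single RNA. The cut at the base of the hairpin leaves a flanking RNA that begins just after the 3p arm. A mature miRNA is far shorter than the 150 to 250 bp fragments that were cut from the gel for these libraries, so reads over a miRNA gene come from longer RNA that covers or borders the hairpin.

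The hairpins on which the results turn are shown from the 5′ to the 3′ end of the annotated gene, followed by the 40 nt of mm9 past its 3′ end. Capitals mark the 3p mature arm, found by an exact match of the RefSeq mature sequence.
Mirlet7a-1, chr13:48633508-48633641 on the minus strand: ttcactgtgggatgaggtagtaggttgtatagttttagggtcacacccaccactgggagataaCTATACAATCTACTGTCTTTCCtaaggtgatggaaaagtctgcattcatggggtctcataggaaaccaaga
Mir106b, chr5:138606925-138607046 on the minus strand: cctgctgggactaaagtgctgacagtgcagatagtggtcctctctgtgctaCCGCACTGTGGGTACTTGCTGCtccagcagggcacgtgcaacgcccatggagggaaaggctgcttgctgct
Mir290, chr7:3218627-3218749 on the plus strand: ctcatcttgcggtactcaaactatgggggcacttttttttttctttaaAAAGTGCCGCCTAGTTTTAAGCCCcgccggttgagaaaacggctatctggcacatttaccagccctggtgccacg
Mir291a, chr7:3218920-3219041 on the plus strand: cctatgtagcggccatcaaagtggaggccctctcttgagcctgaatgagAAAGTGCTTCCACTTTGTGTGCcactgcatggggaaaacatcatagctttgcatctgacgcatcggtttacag
Mir666, chr12:110955295-110955433 on the plus strand: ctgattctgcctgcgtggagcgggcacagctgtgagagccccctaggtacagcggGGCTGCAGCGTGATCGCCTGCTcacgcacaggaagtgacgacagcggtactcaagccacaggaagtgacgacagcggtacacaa
Mir20a, chr14:115443379-115443525 on the plus strand: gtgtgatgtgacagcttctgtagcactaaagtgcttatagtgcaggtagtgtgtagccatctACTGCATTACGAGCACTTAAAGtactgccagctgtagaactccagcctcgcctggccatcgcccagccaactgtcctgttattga
Mir19a, chr14:115443222-115443343 on the plus strand: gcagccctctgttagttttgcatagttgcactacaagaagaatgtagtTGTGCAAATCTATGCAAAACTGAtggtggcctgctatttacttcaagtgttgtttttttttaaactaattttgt

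The most frequent read start over each of these hairpins lay past the end of the capitals. Counted from the 5′ end of each printed sequence, all 30 reads over Mirlet7a-1 began at base 86, which follows the last base of the 3p arm at base 85. Of these, 13 were in ESCs and 17 in NPCs. The let-7 miRNAs are known for their rise as ESCs differentiate. All 10 reads over Mir106b began at base 75, past an arm that ended at base 73, with 6 in ESCs and 4 in NPCs. Mir106b lies in an intron of the replication gene Mcm7. Over Mir666 the start was at base 80 for 19 of 20 reads, past an arm ending at base 77. Over Mir20a it was at base 87 for 12 of 14 reads, past an arm ending at base 84. Over Mir290 the most frequent start was base 74 with 24 of 48 reads, past an arm ending at base 72. Over Mir291a it was base 73 with 16 of 54, past an arm ending at base 71. Starts within 3 nt of the base after the arm made up 31 of 48 and 22 of 54 reads. Both genes also had starts inside the arm. In each of these 6 genes the most frequent start held reads of both libraries. Mir19a differed, with 49 of 83 reads at base 79 and an arm that ended at base 71, and only 9 reads within 3 nt of the end of that arm. Reads that begin at the same base can be copies of a single fragment made in the 15 cycles of PCR. The places above were found in both libraries, which shows at least 1 fragment in each. How many fragments gave the reads at a place was not tested.

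The mature arms of the members were matched to RefSeq, whose table is built on GRCm38.p6, by sequence alone. At least 1 arm was located in 36 of the 48 genes and a 3p arm in 28. The following are shown because they carry the seeds of the let-7, miR-17 and miR-290 families, belong to hairpins printed above or are repeated over several members. Capitals mark the seed, bases 2 to 8.
let-7a-5p: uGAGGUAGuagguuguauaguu
miR-106b-5p: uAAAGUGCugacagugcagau
miR-20a-5p: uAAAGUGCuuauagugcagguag
miR-19a-3p: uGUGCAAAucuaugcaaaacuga
miR-290a-3p: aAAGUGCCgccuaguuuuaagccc
miR-291a-3p: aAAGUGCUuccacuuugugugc
miR-666-3p: gGCUGCAGcgugaucgccugcu
miR-692: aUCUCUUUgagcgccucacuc
miR-703: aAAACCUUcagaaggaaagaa
The seed AAAGUGC was shared by miR-106b-5p and miR-20a-5p. No other pair of differently named arms of the members shared a seed. The sequence of miR-692 was found in 5 members and that of miR-682 in 3, each of them in copies of a gene described further on.

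The place of the read starts was then examined over all miRNA genes with a located 3p arm, in a window of 30 nt to each side of the base after that arm. The members were split by whether they overlapped an exon, in any annotated transcript, of a protein-coding gene or a pseudogene. Of the 24 members that did not, 16 had a located 3p arm, and 164 of 462 read starts (35.5%, 31.1 to 40.1%) lay within 3 nt of the base after it. Starts spread evenly over the window would give 11.5%. The share was 36.3% (30.4 to 42.5%) in ESCs and 34.5% (28.0 to 41.4%) in NPCs. At least 1 such start was present in 12 of the 16 genes. Over both libraries the base 1 nt past it held the most, with 44 starts in ESCs and 25 in NPCs, while in NPCs alone the base 7 nt past it held more, at 35. None of the 141 starts in the same window around the base where the 5p arm begins lay within 3 nt of it, with an upper Clopper-Pearson bound of 2.58%.

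The rule for members used the number of reads and not where they start. The window of 3 nt, however, was chosen after the read starts were seen, so its shares are a description. The miRNA genes with 1 to 9 reads, which the rule left out, were set beside the members with the same window. Of these, 86 genes outside exons of coding genes and pseudogenes had a located 3p arm, and 104 of their 250 starts (41.6%, 35.4 to 47.98%) lay within 3 nt of the base after it, over 42 genes. Around the first base of the 5p arm the same genes had 7 of 34 starts (20.6%, 8.70 to 37.9%). The members in exons of coding genes and pseudogenes had 41 of 483 starts within 3 nt of the 3p arm's end (8.49%, 6.16 to 11.3%). Genes with 1 to 9 reads in such exons had 29 of 151 (19.2%, 13.3 to 26.4%), above the even share. Of the 483 starts, 135 lay 7 nt past the base after the arm, and 121 and 55 lay 26 and 25 nt before it. Those before it lay mostly in members with the sequence of miR-692, which share reads. The share without these members was not computed. Counting each start position once gave 26.4% (18.99 to 34.8%) for the members outside such exons. The genes with 1 to 9 reads outside them then had 40.1% (32.01 to 48.7%). In exons the members had 17.4% (11.4 to 24.99%) and the genes with 1 to 9 reads 20.9% (13.1 to 30.7%). The interval of the members in exons held the even share. The starts 21 and 22 nt past the arm came from AC129217.1 alone, a gene of miR-5136 with 1656 read starts in the 100 nt after its 3′ end, where the annotation has SNORA57. Without this gene the share over members was 43.2% (37.9 to 48.5%). RNA was fragmented with RNase III, an enzyme that cuts double-stranded RNA, and Drosha belongs to the same enzyme family. Which enzyme made these ends was not tested.

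**Figure D1:**
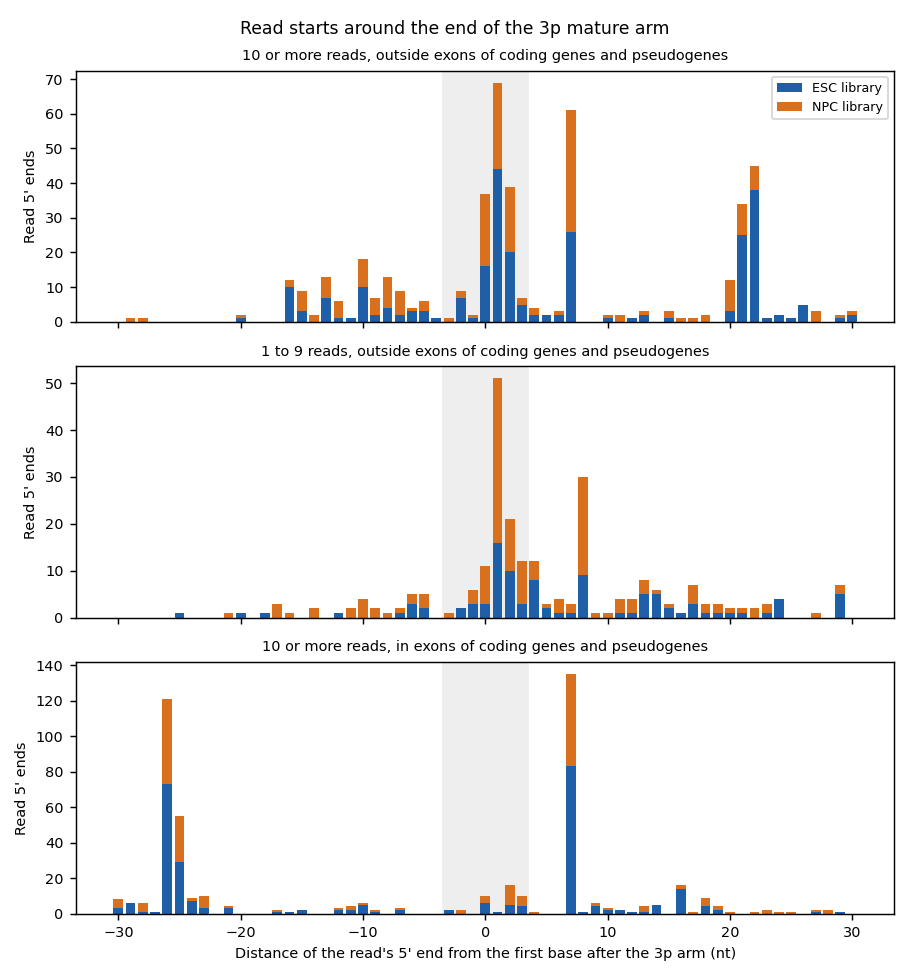
Read 5′ ends (y axis, number of reads, ESC and NPC stacked) by their distance in nt from the base after the 3p mature arm (x axis), for members outside exons of coding genes and pseudogenes, for miRNA genes with 1 to 9 reads outside them, and for members inside them; grey marks 3 nt to each side. The upper panels peak at 1 nt past the arm, with 164 of 462 and 104 of 250 starts in the grey band, and the bottom panel has 41 of 483 there, with its highest peak 7 nt past the arm.

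Whether reads stopped at the hairpin or ran on was read from the place of the full 48 nt. A read was called contained if it reached no more than 10 nt past either end of the gene. Reads were mostly contained (at least 80%) for 12 members, ran on (under 50% contained) for 33, and were mixed for 3. The number contained was 7 with no base allowed past the ends and 21 with 25 nt. With each start position counted once it was 4, with 11 mixed. Among the 33, reads past the 3′ end outnumbered those past the 5′ end in 28 and the reverse held in 5. All reads ran past the 3′ end for 10 members. The classes followed the annotation. None of the 10 members in introns and none of the 4 in exons of noncoding genes were contained, compared with 6 of 17 in exons of protein-coding genes, 3 of 7 in exons of pseudogenes and 3 of 10 outside any gene. Over the 24 members outside exons of coding genes and pseudogenes, 465 of 796 reads (58.4%) ran past the 3′ end and 38 past the 5′ end. Over the 24 inside such exons, 258 of 3147 (8.20%) ran past the 3′ end and 324 past the 5′ end. Both shares lean on few genes. Of the 3147 reads inside, 1762 were of mmu-mir-703, with 5 of them past the 3′ end. Of the 293 contained reads outside, 164 were of CT009594.1 and 58 of AC167419.1. By gene, more than 50% of the reads ran past the 3′ end in 19 of the 24 members outside and 6 of the 24 inside. Of the 47 members with reads in both libraries, 40 fell in the same class in each. Of the reads that ran on, only the 48 nt at the 5′ end of each fragment were sequenced, so where the fragments end is not known. Exon edges were not compared with the hairpins, so reads contained over an exon need not stop at the hairpin itself.

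**Figure D2:**
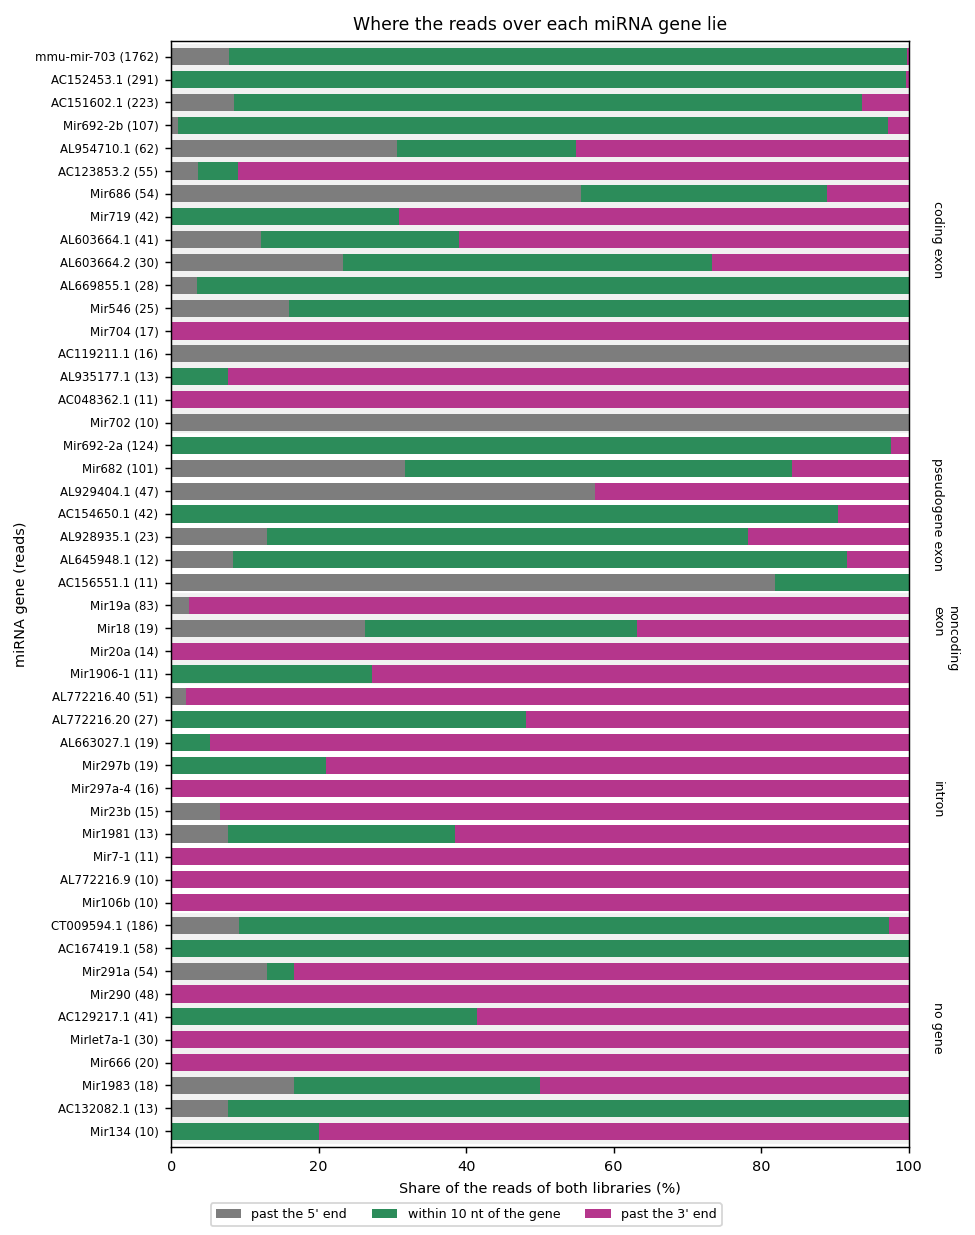
Share of reads (x axis, percent of both libraries together) of each miRNA gene (y axis, with its number of reads) that reached past the 5′ end, stayed within 10 nt of the gene or reached past the 3′ end, grouped by the overlapping annotation. Mirlet7a-1, Mir106b, Mir290, Mir666 and Mir20a lie wholly past the 3′ end, and mmu-mir-703 and AC152453.1 almost wholly within the gene.

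By position, the 48 members fell into 39 genomic clusters of miRNA genes no more than 10 kb apart on a strand, and 5 of these clusters held 2 or more members. The miR-290 to miR-295 cluster, whose miRNAs are the most abundant of mouse ESCs, lies on chromosome 7 at 3218627 in mm9 and spans 2216 nt. All 7 of its genes carried reads and 2 were members. Mir290 had 37 ESC reads and 11 NPC reads (8.66 and 2.50 RPM, reads scaled to the size of the library), a ratio of NPC to ESC of 0.289 (0.133 to 0.578). Mir291a had 44 and 10 reads, a ratio of 0.221 (0.0990 to 0.445). The other genes of the cluster had between 2 and 9 reads each. Over all 7 hairpins there were 98 reads in ESCs and 32 in NPCs, or 3.15-fold fewer in NPCs (ratio 0.317, 0.206 to 0.477). With each start position counted once, and scaled to the distinct starts of each library with 1 added, the log2 ratio of Mir290 moved from -1.71 to -0.27, with 4 positions in each library. That of Mir291a moved from -2.08 to -1.27, and that of all 7 hairpins from -1.63 to -0.86, with 26 and 17 positions. Over the whole span the reads numbered 309 and 137, a ratio of 0.430 (0.349 to 0.528), lower in the NPC library as over the hairpins alone.

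The reads of this cluster were not limited to hairpins. Read starts were as dense between hairpins (20.16 per 100 nt) as on them (20.04 per 100 nt). In the 500 nt before Mir290 the ESC library had 351 read starts and the NPC library 122. The most used of all lay 227 nt before Mir290, with 66 in ESCs and 32 in NPCs, and the next lay 108 nt before it, with 48 and 7. Others lay between annotated hairpins, 1501 nt past the start of Mir290 with 17 and 16 starts and 1900 nt past it with 26 and 3. GENCODE M1 annotates no other gene over Mir290 or Mir291a on their strand.

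The miR-17 to miR-92a cluster lies in an exon of its noncoding host Mir17hg on chromosome 14, and its miRNAs are known to favour proliferation. Its 6 genes span 836 nt, all carried reads and 3 were members. Mir19a had 26 ESC reads and 57 NPC reads (6.09 and 12.96 RPM), a ratio of 2.13 (1.32 to 3.53). Mir18 had 8 and 11 reads, with a ratio of 1.33 (0.489 to 3.82), and Mir20a had 3 and 11, with a ratio of 3.56 (0.9403 to 19.9). Mir17, Mir19b-1 and Mir92-1 had 1 to 3 reads each. In contrast to miR-290 to miR-295, the starts lay mostly on the hairpins, at 20.9 per 100 nt compared with 3.33 between them. These densities rest on 112 starts on hairpins, 81 of them in Mir19a, and 10 between. Starts in Mir19a were 19.95 times as dense as in the rest of the exons of Mir17hg. Over the 6 hairpins the NPC to ESC ratio was 2.04 (1.38 to 3.07) from 39 and 82 reads. With each start position counted once both libraries had 19. Scaled to the distinct starts of each library and with 1 added, the log2 ratio was -0.27, compared with 1.01 for all reads. The higher count in the NPC library lay in repeated starts at the same bases, among them 1 position of Mir19a with 15 reads in ESCs and 34 in NPCs.

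**Figure D3:**
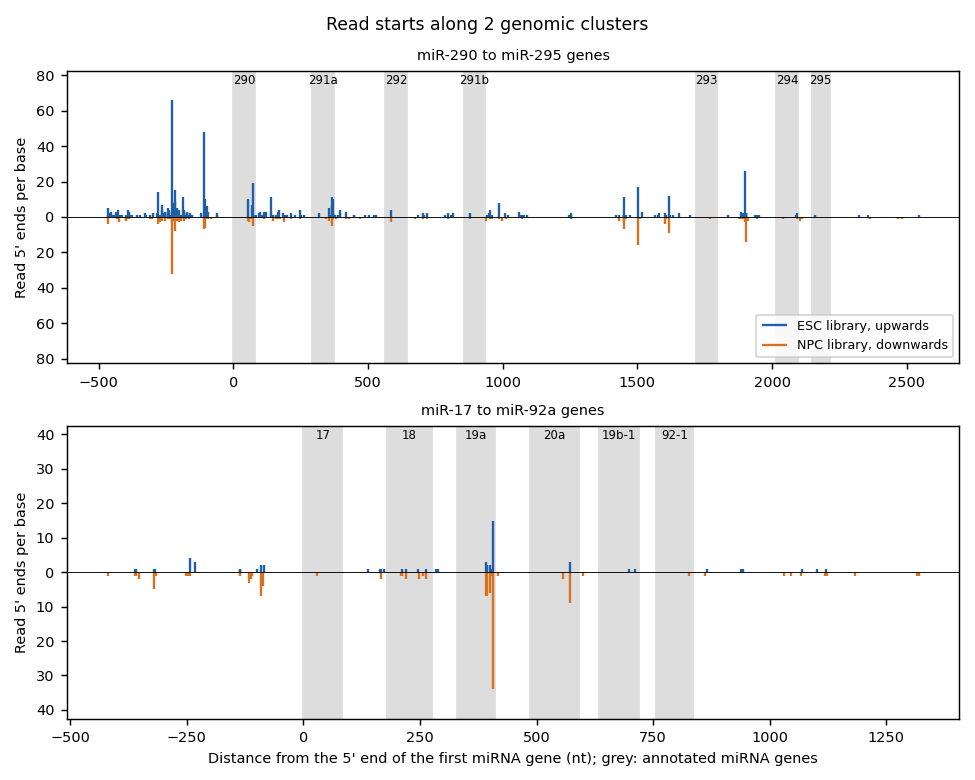
Read 5′ ends at each base (y axis, number of reads; ESC upwards, NPC downwards) by distance in nt from the 5′ end of the first miRNA gene (x axis) for the miR-290 to miR-295 and the miR-17 to miR-92a clusters, with annotated miRNA genes in grey. In the upper panel most starts lie before Mir290 and between hairpins, and in the lower panel the highest peak is in Mir19a, with 15 reads in ESCs and 34 in NPCs.

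Mirlet7a-1 on chromosome 13 lies within 10 kb of Mirlet7d, which had 8 reads, all of them starting within 3 nt of the end of its 3p arm. On both hairpins 16 reads were from ESCs and 22 from NPCs, a ratio of 1.33 (0.670 to 2.72), and Mirlet7a-1 alone 1.27 (0.581 to 2.84). The interval holds 1 in both cases. Starts on these hairpins were 2.59 times as dense as between them. The hairpins of Mir106b, Mir93 and Mir25 together held 14 ESC reads and 6 NPC reads (ratio 0.416, 0.131 to 1.15). Mir23b, in an intron of 2010111I01Rik, had 11 and 4 reads (ratio 0.353, 0.0820 to 1.19), with 12 of 15 reads starting at base 82. Its neighbour Mir27b had none.

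The large imprinted Dlk1-Dio3 cluster, maternally expressed with Meg3, held 32 annotated miRNA genes over 38936 nt of chromosome 12, of which 21 had reads. Its members were Mir666, with 11 reads in ESCs and 9 in NPCs (ratio 0.794, 0.291 to 2.11), and Mir134, with 7 and 3 (ratio 0.416, 0.0694 to 1.82). Over all hairpins the libraries were level, with 39 and 40 reads. Over the whole span they were not, with 245 and 499 reads and a ratio of 1.98 (1.69 to 2.31). Starts were 1.43 times as dense on hairpins as between them. Mir1906-1, in an exon of Meg3 itself, had 3 reads in ESCs and 8 in NPCs (ratio 2.59, 0.621 to 15.2).

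The largest cluster lies in an intron of Sfmbt2, a polycomb-group gene that is imprinted in mouse. It held 119 miRNA genes in 52993 nt of chromosome 2, and 52 of them had reads. Its 5 members were AL772216.40 (9 reads in ESCs and 42 in NPCs), AL772216.20 (11 and 16), Mir297b (0 and 19), Mir297a-4 (5 and 11) and AL772216.9 (1 and 9). Each had more reads in the NPC library. The interval of the ratio lay above 1 for AL772216.40 (4.53, 2.17 to 10.6) and AL772216.9 (8.74, 1.21 to 383). Mir297b, with no read in ESCs, had an interval of the ratio that began at 4.53. Counting its ESC reads at the floor of 3 gave a ratio of 6.15, which leaves out the error of the NPC count. With each start position counted once, the log2 ratio of AL772216.40 moved from 2.06 to 0.58, with 4 positions in ESCs and 8 in NPCs. Over all hairpins the ratio was 3.18 (2.40 to 4.27) from 65 and 213 reads, and the log2 ratio fell from 1.65 to 0.84 with each start position counted once. In the exons of Sfmbt2 the ratio was higher, with 282 starts from ESCs and 1606 from NPCs (5.53, 4.87 to 6.30). Of these members' reads, 46 of the 51 over AL772216.40 matched 2 places of the genome, and all reads over Mir297b and Mir297a-4 were pieces left by the repeat filter. Starts were less dense on the hairpins (2.19 per 100 nt) than between them (3.99 per 100 nt), where a single base 5598 nt from the start of the cluster held 123 starts from ESCs and 117 from NPCs. No mature arm was located in these 5 genes. The most frequent start was base 78 for 35 of 51 reads of AL772216.40 and base 97 for 6 of 10 of AL772216.9. It was base 74 for 9 of 27 of AL772216.20, base 72 for 12 of 16 of Mir297a-4 and base 76 for 10 of 19 of Mir297b. Over Mir297a-4 and Mir297b the repeat filter left only pieces near the 3′ end of the gene. The filter thus bounded where their counted reads could start, and no preference can be read from these starts or from their running past the 3′ end.

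The last pair of members in a cluster lies in exons of Ddx5, an RNA helicase that works with Drosha. AL603664.2, the gene of miR-3064, had 15 reads in each library (ratio 0.971, 0.442 to 2.13), and AL603664.1 had 23 and 18 (ratio 0.760, 0.386 to 1.47). The remaining exons of Ddx5 held 1019 starts from ESCs and 2598 from NPCs when AL603664.1 was left out, a ratio of 2.48 (2.30 to 2.66). The intervals of hairpin and host did not overlap in either gene. Over the hairpins, starts were 0.429 and 0.559 times as dense as in the rest of the exons.

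Most reads of the list belonged to other genes. The 24 members in exons of coding genes and pseudogenes held 3147 of the 3943 reads, and mmu-mir-703 alone held 44.7%. This gene lies on chromosome 9 in an exon of Eef1a1, the elongation factor that brings tRNA to the ribosome. It had 949 ESC reads and 813 NPC reads (222 and 185 RPM), a ratio of 0.832 (0.756 to 0.914). Of its reads, 91.9% (90.5 to 93.1%) were contained, where reads placed evenly would give 52.3%. Read starts were as dense in it as in the other exons of Eef1a1, at 1.04 times, while those exons had a ratio of 0.587 (0.574 to 0.600), below that of the hairpin. CT009594.1, in no annotated gene on chromosome 17, also holds the sequence of miR-703, and all of its 186 reads matched Eef1a1 as well. It had 105 reads in ESCs and 81 in NPCs (ratio 0.749, 0.553 to 1.01).

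AC152453.1, in an exon of the endoplasmic reticulum chaperone Hsp90b1, had 119 reads in ESCs and 172 in NPCs, a ratio of 1.40 (1.10 to 1.79), and 290 of 291 were contained. They were all unique in mm9. The joined reads spanned 140 nt over a gene of 133 nt, and the 100 nt before and after it held 0 and 2 starts. Whether the exon itself ends there was not tested. With each of its 35 start positions in ESCs and 34 in NPCs counted once, the log2 ratio turned from 0.49 to -0.31. The other exons of Hsp90b1 stood at 1.88 (1.80 to 1.98). AL669855.1, in an exon of the cytoplasmic actin gene Actg1, had 8 and 20 reads (ratio 2.43, 1.02 to 6.37), of which 27 of 28 were contained. Its log2 ratio also turned, from 1.18 to -0.050, with each start counted once.

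The 5 members with the sequence of miR-692 lie in Ftl1, the gene of the ferritin light chain that stores iron, and in copies of it. AC151602.1, in Ftl1 itself, had 140 reads in ESCs and 83 in NPCs (ratio 0.576, 0.433 to 0.760), with 85.2% of the reads unique and 85.2% contained. Its starts were 2.93 times as dense as in the rest of Ftl1, the largest such ratio among members in exons of protein-coding genes. Mir692-2a had 68 and 56 reads, Mir692-2b 68 and 39, AC154650.1 24 and 18, and AL645948.1 9 and 3. No read of Mir692-2a, Mir692-2b or AC154650.1 was unique, and the median read of each matched 4 places. All 5 were lower in NPCs, but they share reads and are not independent. Contained reads made up 83.3 to 97.6% of them. The 3 members with the sequence of miR-682 shared their reads in the same way. Mir682 had 62 and 39 reads (ratio 0.611, 0.398 to 0.926), AL929404.1 27 and 20, and AL928935.1 12 and 11. They lie in the pseudogenes Gm4149, Gm14251 and Gm14173, and none of the reads of AL929404.1 and AL928935.1 was unique. AC119211.1, in Gm4613, carried 11 and 5 reads that also matched Gm4149.

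The other contained members were Mir546, AC167419.1 and AC132082.1. Mir546, in an exon of the phosphatase gene Ctdsp2, had 1 read in ESCs and 24 in NPCs, a ratio of 23.3 (3.80 to 958), while the rest of Ctdsp2 was at 1.80 (1.52 to 2.13). The 24 reads in NPCs began at 13 positions. AC167419.1, in no annotated gene, had 37 and 21 reads (ratio 0.551, 0.306 to 0.966). They began at 2 positions in each library, were all pieces left by the repeat filter and matched a median of 27 places. AC132082.1 had 7 and 6 reads, of which 12 also matched an exon of the ribosomal protein gene Rpl37a. Of the 12 members with contained reads, 7 had fewer than 20% unique reads.

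Some members that overlap an annotated exon of a coding gene also had starts at the end of the arm. Mir704, in Pdia4, had 5 reads in ESCs and 12 in NPCs, of which 14 of 17 began within 3 nt of the end of the 3p arm. AL935177.1, the gene of miR-3061 in the phosphatase gene Ppp2ca, had 8 and 5 reads and 11 of 13 began there. Its ratio was 0.607 (0.156 to 2.10) and that of the rest of Ppp2ca 1.99 (1.82 to 2.18), with overlapping intervals. Others ran through the exon. AC123853.2 in Scd2 had 25 and 30 reads, AL954710.1 in Rcc2 30 and 32, Mir686 in Psmb5 28 and 26, and Mir719 in Nupl1 12 and 30 (ratio 2.43, 1.21 to 5.21). Mir702 in Plod3 had 2 and 8 reads, all running in from the 5′ side, and AC048362.1 in Mmgt1 had 2 and 9. AC156551.1, in the pseudogene Actg-ps1, had 6 and 5.

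The remaining members lie in introns or outside genes. Mir1981, in an intron of Mosc2, had 1 read in ESCs and 12 in NPCs (ratio 11.6, 1.72 to 498), and 8 of the 13 began within 3 nt of the end of the 3p arm. AL663027.1, the gene of miR-3091 in an intron of the ribosomal protein gene Rps21, had 8 and 11 reads, and 9 of 19 began at base 52, within the 3p arm. Mir7-1, in an intron of Hnrnpk, had 9 and 2 reads (ratio 0.216, 0.0227 to 1.04), and 5 of 11 began at base 78, also within the arm. Mir1983 had 6 and 12 reads, 17 of them pieces left by the repeat filter, and AC129217.1 had 22 and 19.

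Members were set beside the genes they lie in, by read starts in the host's exons outside the hairpin. In exons of protein-coding genes 13 of 17 members were within 2-fold of the NPC to ESC ratio of the host, in pseudogenes 6 of 7, in exons of noncoding genes 4 of 4, and in introns 4 of 10. The density of starts on the hairpin over that on the rest of the host's exons had a median of 0.894 in protein-coding exons and 0.441 in pseudogenes, compared with 7.26 in exons of noncoding genes and 0.961 for introns. Mir7-1 was furthest below its host on the log2 scale (difference -2.76) and Mir546 furthest above (2.76). For hosts in several copies, reads shared between copies enter both sides. Of the 4 members in noncoding exons 3 share the host Mir17hg, and 5 of the 10 in introns share Sfmbt2, so they are not independent.

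**Figure D4:**
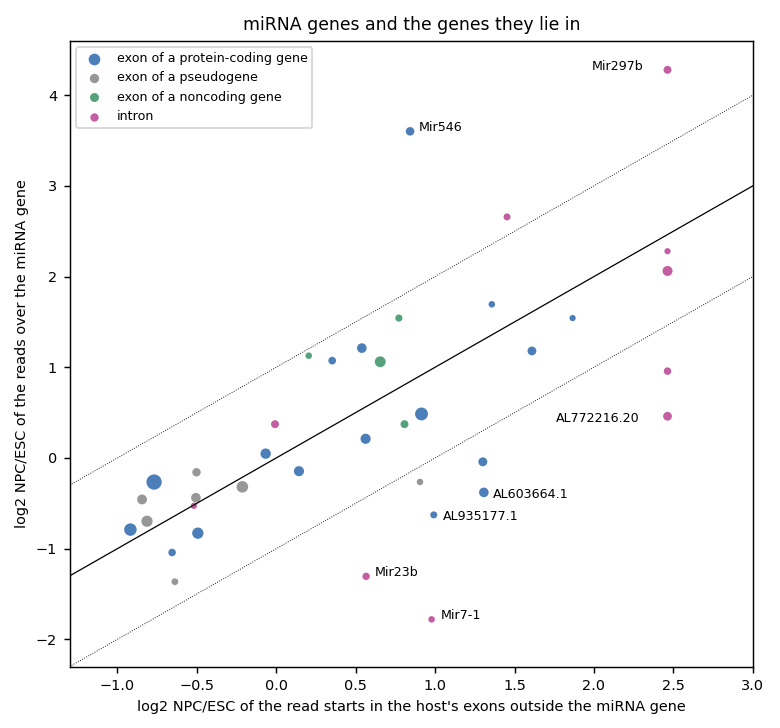
Log2 NPC to ESC ratio of the reads over each miRNA gene (y axis) against that of the read starts in the exons of its host outside the miRNA gene (x axis), with 1 read added in each library; colours give the overlap, larger points have more reads, the line marks equality and the dotted lines 2-fold. Mir7-1 and Mir546 lie farthest from the line, and the 5 members in Sfmbt2 share a host value of 2.46.

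Over the 48 members the log2 ratio had a median of -0.15, beside 0.34 over the 14859 genes with at least 10 reads. In NPCs 26 members were lower, beside 5523 of all those genes. The sign of the median depended on the counting. With unique reads alone it was 0.26 over 34 members, 14 lower and 20 higher. By the 5′ end alone it was 0.11 over 45 members, 22 lower and 23 higher. The shares past 2-fold were close to those of all genes, which share the minimum of 10 reads but were not matched for depth. With 1 read added in each library, 7 of the 48 members (14.6%) were more than 2-fold lower in NPCs, where 12.8% of the 14859 genes with at least 10 reads were. Another 13 (27.1%) were more than 2-fold higher, where 24.6% of all genes were. The interval of the ratio lay below 1 for 7 members, above 1 for 9 and held 1 for 32. By annotation, the median log2 ratio was 0.71 over the 10 members in introns, which ranged from -1.78 to 4.28. Of these 10, 5 lie in the cluster in Sfmbt2. The median was 1.09 over the 4 in noncoding exons and 0.05 over the 17 in protein-coding exons. It was -0.44 over the 7 in pseudogenes and -0.36 over the 10 outside genes. Of the members in pseudogenes all 7 were lower in NPCs, with shared reads among them.

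**Figure D5:**
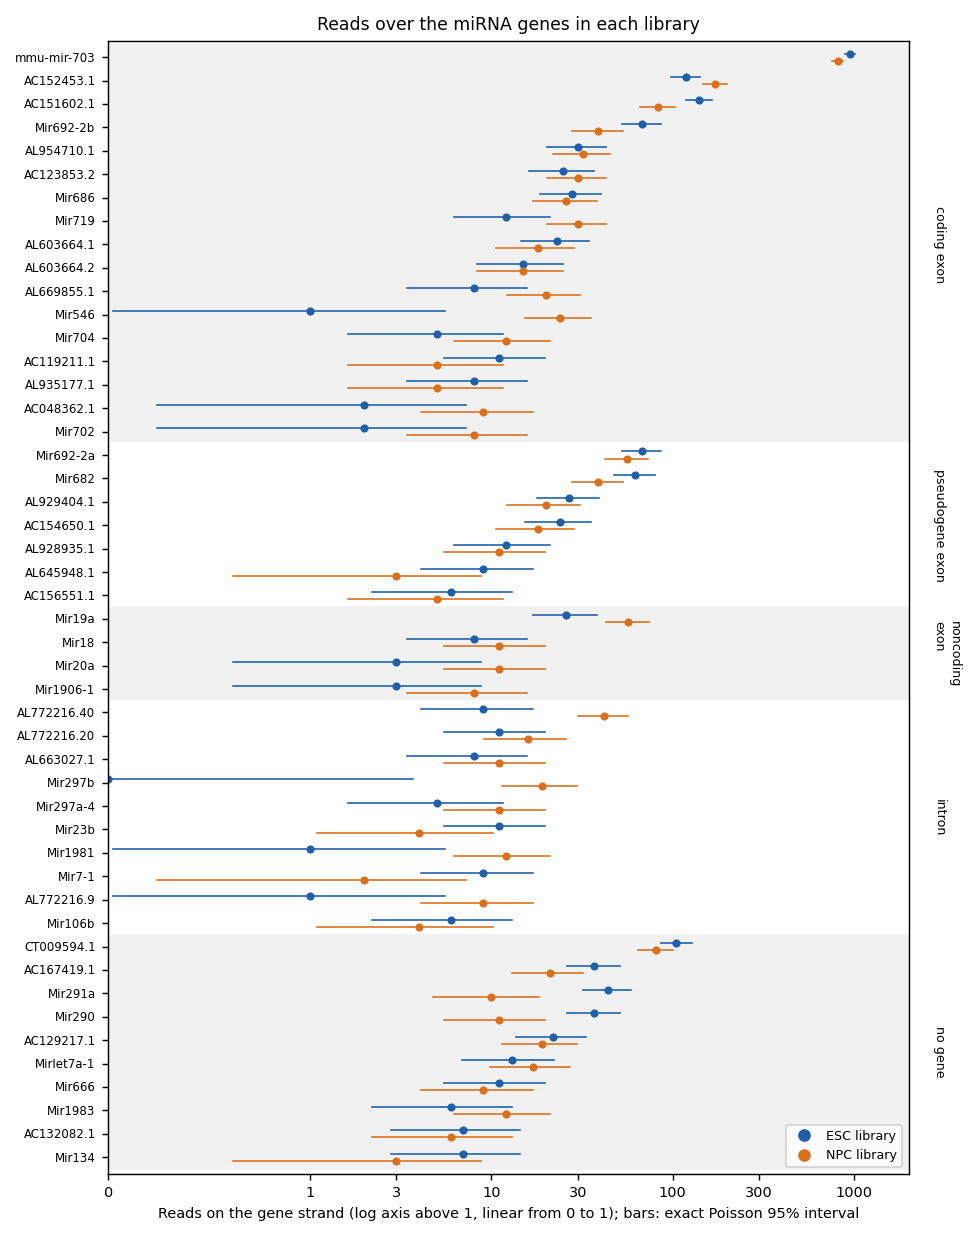
Reads of each miRNA gene in the ESC and NPC libraries (x axis, log above 1 and linear from 0 to 1) with exact Poisson 95% intervals, grouped by the overlapping annotation (y axis). Mir290 and Mir291a lie higher in ESCs and Mir19a and AL772216.40 higher in NPCs, and most intervals overlap.

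Marker genes were counted over their exons in the same libraries. These are reads of NPA RNA, and the paper proposes that such reads over coding exons are incomplete nascent or partly degraded mRNA. Levels of polyadenylated mRNA are not given by these counts. The 11 pluripotency genes summed to 2454 RPM in ESCs and 711 in NPCs, and 8 were more than 2-fold lower in NPCs. The 10 neural progenitor genes that were found summed to 200.4 and 277.7 RPM. Their ESC and NPC reads were 469 and 706 for Vim, 109 and 161 for Otx2, 109 and 87 for Tubb3, 100 and 104 for Ncam1, and 66 and 121 for Nes. Zic1 had 1 and 22, Pax6 1 and 12, Sox3 0 and 5, Hes5 1 and 2, and Fabp7 0 and 2. The 12 genes of extraembryonic endoderm summed to 684 and 13041 RPM, 11 of them more than 2-fold higher in NPCs. The 10 fibroblast genes, which the feeder cells would express, summed to 478 and 276 RPM, and most of this was Fn1 with 1815 ESC reads and 938 NPC reads. Of the 8 fibroblast genes with at least 10 reads, 3 were lower and 5 higher in NPCs, among them Thy1 with 79 and 12 reads and Col1a2 with 51 and 165. The part of any of these cells in the miRNA gene ratios was not tested. In bulk RNA, fewer cells of a type and less RNA per cell cannot be told apart.

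The genes that make and use miRNAs were counted over their exons in the same NPA reads, with the same limit. All 28 had at least 10 reads, 7 were more than 2-fold higher in NPCs and none more than 2-fold lower, beside the 24.6% and 12.8% of all genes. Dgcr8, the partner of Drosha, had 98 reads in ESCs compared with 488 in NPCs (4.83-fold), and Drosha 327 compared with 543 (1.61-fold). Lin28b and Lin28a, which block the processing of let-7, had 25 and 244 reads (9.48-fold) and 425 and 953 (2.18-fold). Ddx5 had 1060 and 2679 reads and Ddx17 1141 and 2388. Dicer1 had 382 and 735 reads. Of the Argonaute genes, which hold the mature miRNA, Eif2c2 had 585 and 581 reads and Eif2c1 73 and 192. The median log2 ratio of the 28 genes was 0.50, with genes from -0.48 to 3.19, beside 0.34 over all genes.

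Families known in these cells were looked up whether or not they had enough reads. Of the 5 genes of the miR-302 cluster, Mir302d and Mir367 were overlapped by the same 3 reads, all in NPCs and from 1 start position. The miR-124 genes had none, and those of miR-9, miR-125 and miR-21 had 1, 0 and 1. A count of 0 was read as up to 3 reads, 0.702 RPM in ESCs, and its exact Poisson upper limit is 3.69 reads. Of the 9 let-7 genes 4 had reads. At the threshold, the genes just inside with 10 reads were AL772216.9, Mir702, Mir106b and Mir134. Just outside, with 9, were Mir466f-1, AL772216.10, mmu-mir-1902, Mir93, Mir292, Mir431, Mir127 and Mir1306. Of these, Mir431 (8 of 9 reads), Mir127 (7 of 9) and Mir93 (7 of 9) mostly began within 3 nt of the end of the 3p arm, whereas mmu-mir-1902 and Mir1306 had 1 of 9 reads there.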

How the data were processed

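NPA RNA was sequenced strand-specifically on SOLiD 3, with 1 library for ESCs and 1 for NPCs. The authors placed the reads on mm9 with Bowtie, keeping reads that fit several places, and filtered out mitochondrial, ribosomal and repeat reads, which leaves shorter pieces of some reads and removes hairpins in repeats. The deposited files hold read placements (start and end positions, strand and read sequence, 1 line per read) and no other measure. From them, reads overlapping each GENCODE M1 gene by at least 1 base on its strand were counted and scaled to RPM by the library total. Since several placements may fit, reads of copies are shared.

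The full 48 nt of each placement was used for the read's 5′ end, its containment (10 nt allowed) and its uniqueness in mm9. Mature arms were placed by exact match within 30 nt of the gene. Exons of a gene were joined over all its annotated transcripts, so a hairpin in an intron of 1 transcript can count as exonic. Within Mcm7, Mir93 was called exonic and Mir106b intronic. Genomic clusters join miRNA genes up to 10 kb apart. Log2 ratios add 1 read in each library, and the ratios given with intervals add none.

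The members, gene lists and tests were chosen with earlier results of these data known. Values are given in full for members of clusters with 2 or more members, contained members, members with at least 100 reads, the 5 highest and 5 lowest ratios among those with at least 30 reads, and genes just inside and outside 10 reads. The window of 3 nt around the 3p arm was chosen after the read starts were seen. Counting and classing were tested on simulated data. Depth is 4271306 reads in ESCs and 4399729 in NPCs, so that 1 read is worth 0.234 and 0.227 RPM, and the unique share is 82.0 and 86.9%. Alternatives counted each start once, used unique reads, other totals, minimums, tolerances and thresholds, or the 5′ end alone. Tools were pysam 0.24.0, SciPy 1.17.1, NumPy 2.4.6, matplotlib 3.10.9 and numba 0.67.0 under Python 3.11.15.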

Additional observations from a re-analysis of the deposited data

How the results depend on the processing

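No paired analysis was possible because each cell type has 1 library. Depth limits most members, since 21 had 10 to 19 reads and 32 ratios had intervals that hold 1. Each start position counted once, with totals of distinct starts, gave 25 members with at least 10, a median log2 ratio of -0.41, 4 higher in NPCs, 3 more than 2-fold lower and 1 more than 2-fold higher. It gave log2 ratios of 0.84 for the cluster in Sfmbt2, -0.86 for miR-290 to miR-295 and -0.27 for miR-17 to miR-92a, the last turned, and turned AC152453.1 to -0.31, AL669855.1 to -0.050 and Mir19a to -0.44. It left 4 members contained and 11 mixed. Unique reads left 34 members with at least 10, with a median log2 ratio of 0.26, 14 lower and 20 higher in NPCs. Of the 39 members with any unique read, 7 were contained and 1 mixed. Counting by the 5′ end alone left 45 members, with a median of 0.11, 22 lower and 23 higher. Scaling by the median of ratios over read clusters, which lowers every log2 ratio alike, gave a median of -0.41 and 8 members more than 2-fold higher. With at least 1 read, 122 genes were lower and 120 higher, 67 and 56 of them by more than 2-fold. With at least 50 reads these were 9, 5, 1 and 2. Members in no exon of another gene had 11 lower, 9 higher and 4 more than 2-fold higher. With 0 nt past the ends 7 members were contained, with 25 nt 21 were contained, 8 mixed and 19 running on, and with limits of 90% and 40% 9 were mixed. Both alternatives for the share of starts at the end of the 3p arm were chosen after seeing the data. The share was 26.4% with each start counted once and 43.2% without AC129217.1, compared with 35.5%. The causes of these changes were not tested. The total without the 10 largest read clusters moved no member's ratio by more than its counting interval.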
